A study of Mus musculus with 6 samples.

Results

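The 10 genes followed were the platelet-derived growth factor (PDGF) ligand genes Pdgfa, Pdgfb, Pdgfc and Pdgfd, the PDGF receptor genes Pdgfra, Pdgfrb and Pdgfrl, and the vascular endothelial growth factor (VEGF) ligand genes Vegfa, Vegfb and Vegfc. They were chosen by name, and all 10 were found among 24809 genes. Their transcripts were measured by RNA sequencing in C2C12, a mouse myoblast line that can be made to fuse into myotubes. Msx1 overexpression (n = 3) was compared with control (n = 3), whose columns in the deposited table name a vector. Msx1 is a homeobox factor known to hold back muscle differentiation. The labels do not state the promoter of the vector, pooled or clonal origin, growth or differentiation medium, or confluence. If the groups differed in medium or confluence, that difference and Msx1 cannot be told apart. Whether replicates came from separate cultures is also not stated, and the p-values reflect the spread among these samples alone, which may be technical.

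PDGF ligands are secreted dimers that bring receptor tyrosine kinases together in pairs. The alpha receptor binds the A and C chains and also the B chain, and the beta receptor binds the B and D chains. In skeletal muscle the alpha receptor is known as a marker of fibro-adipogenic progenitors and the beta receptor as a marker of mural cells of vessels. VEGF-A is a mitogen of endothelial cells and binds the receptor kinases encoded by Flt1 and Kdr. VEGF-B binds Flt1, while VEGF-C acts mainly through Flt4 on lymphatic endothelium.

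Values are FPKM (fragments scaled to transcript length and to the mapped fragments of the library), summed over the RefSeq transcripts of a gene. Means are given with SD. A change is the difference in log2(FPKM + 1), Msx1 overexpression minus control, with its standard error (SE) and adjusted p from limma, and a gene was called at an adjusted p under 0.05. The test took in genes whose mean over the 6 libraries reached 0.5 FPKM. A fold is the ratio of group mean FPKM. Msx1 itself was at 7.99, 7.13 and 7.54 FPKM in control replicates 1, 2 and 3 and at 1004, 943.7 and 912 FPKM with Msx1 overexpressed. Total gene FPKM ran from 409664 to 441835 in control and from 390439 to 401802 in Msx1 libraries. Of the 6 myoblast markers, Myod1 read 20.7 to 24.2 FPKM and Des 112 to 141 FPKM over all 6 libraries, while Myf5 read 8.55 to 9.25 FPKM in control and 1.53 to 1.70 FPKM in Msx1 libraries and Chrnd 0.882 to 1.66 FPKM over all. All 6 were tested.

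Pdgfrb and Vegfa had the largest rises in log2(FPKM + 1) among the 9 members tested, while Pdgfb had the largest fold and, with a pseudocount of 0.1, the largest log2 change (1.85). Pdgfra fell, and the ligand genes Pdgfa, Pdgfb and Pdgfc rose. In all, 6 of the 9 tested members were called higher and 1 was called lower. Across all 12371 genes tested, 22.0% were called higher and 32.4% lower. The groups did not overlap for 7 of the 9, beside 62.3% of all genes tested (25.5% higher and 36.8% lower). Called changes of at least 1 on the log2 scale were seen for 2 members, Pdgfrb and Vegfa, and for 7.53% of all genes. With a pseudocount of 0.1 the count of members was 4, Pdgfb and Pdgfra (-1.07) being added, and with the most abundant transcript it was 1. It was 3, Pdgfra being added, with sample weights, without control replicate 1 and without Msx1 replicate 1. The share of all genes was counted only under the fit described above. The median change of the 9 members was 0.56, and that of all genes tested was -0.07. Pdgfb reached the minimum for testing only through its level in Msx1 cells, so its entry into these counts depended on its difference, and Pdgfd was below the minimum.

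**Figure D1:**
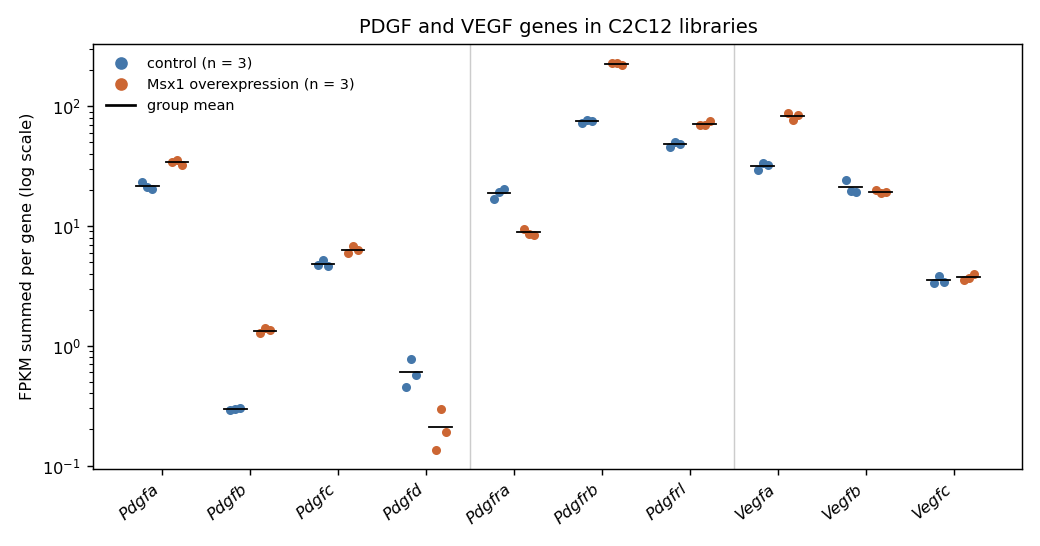
FPKM of each of the 10 genes (log axis) in the 3 control and 3 Msx1 libraries, with points for libraries and lines for group means. Pdgfrb stands at 72.4 to 76.1 in control and 219 to 228 in Msx1 libraries, while Pdgfra lies lower in all 3 Msx1 libraries and the points of Vegfb and Vegfc overlap.

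In control cells Pdgfrb had the highest mean level at 74.6 FPKM, followed by Pdgfrl at 48.1 and Vegfa at 31.8 FPKM. Pdgfa at 21.5, Vegfb at 20.9 and Pdgfra at 18.7 FPKM came next, and the libraries of each of these overlapped with those of its neighbour. Pdgfc at 4.85 and Vegfc at 3.52 FPKM followed without overlap, and Pdgfd at 0.602 and Pdgfb at 0.298 FPKM were lowest. In Msx1 cells Vegfa at 82.6 FPKM stood above Pdgfrl at 71.2 FPKM without overlap. Pdgfb at 1.33 FPKM stood above Pdgfd at 0.209 FPKM, the reverse of their order in control.

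Pdgfrb (chromosome 18, 61045127 to 61085067, GRCm38) encodes the beta receptor. It read 72.4, 76.1 and 75.4 FPKM in control and 228, 228 and 219 FPKM in Msx1 libraries. All Msx1 libraries lay far above all control libraries, with little spread within either group. The mean went from 74.6 ± 1.94 to 225 ± 5.16 FPKM (n = 3 each), 3.01-fold higher, with a log2 change of 1.58 (SE 0.05, limma adjusted p = 1.74e-07). By log2 change Pdgfrb ranked 254 from the top of the 12371 genes tested. Both of its RefSeq transcripts rose together, NM_008809 from 41.9 ± 2.65 to 130 ± 4.47 FPKM and NM_001146268 from 32.7 ± 0.973 to 94.8 ± 0.72 FPKM as group means. NM_008809 held between 54.1% and 58.5% of Pdgfrb FPKM in every library.

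Pdgfra (chromosome 5, 75151322 to 75198206) encodes the alpha receptor. It read 16.7, 19.2 and 20.3 FPKM in control and 9.51, 8.61 and 8.41 FPKM in Msx1 libraries. Each Msx1 library was below each control library. The mean went from 18.7 ± 1.84 to 8.84 ± 0.583 FPKM (n = 3 each), a control level 2.12-fold that of Msx1 cells, with a log2 change of -0.999 (SE 0.08, limma adjusted p = 2.86e-05). It ranked 423 from the bottom of the genes tested. In these bulk samples, fewer cells with a transcript and less of it per cell cannot be told apart.

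Within a library the ratio of the receptors does not depend on how libraries are scaled to each other. Pdgfrb FPKM was 4.34, 3.97 and 3.72 times Pdgfra FPKM in control replicates 1, 2 and 3. With Msx1 overexpressed it was 23.9, 26.5 and 26.0 times Pdgfra FPKM. The log2 ratio of Pdgfra to Pdgfrb went from -2.001 ± 0.112 to -4.67 ± 0.078 (n = 3 each), a difference of -2.67. By exact permutation (two-sided) p was 0.1, which is the lowest value reachable with 3 libraries a group, and 0.15 after Benjamini-Hochberg adjustment over the 3 within-library measures tested. The summed FPKM of both receptors was 89.1 to 95.7 in control and 227 to 237 in Msx1 libraries.

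Almost all Pdgfra FPKM was assigned to transcripts other than NM_011058 and NR_144636, whose first exons lie upstream of that of NM_001083316. NM_001083316, whose first exon lies at chromosome 5, 75155899 to 75156349 in GENCODE, held 87.7% to 91.2% of Pdgfra FPKM in control and 91.5% to 94.6% in Msx1 libraries. NM_011058, whose first exon is at 75152306 to 75152457, read at most 0.012 FPKM in any library, and NR_144636 at most 0.02 FPKM. RefSeq's promoter table of GRCm38.p6 gives 1 start site for Pdgfra, 75152251 on the plus strand, just before that exon. The 250 bases before it (chr5:75152001-75152250, plus strand) are shown as the 1 Pdgfra window in that table. The gene interval given above begins earlier, at 75151322, so this stretch lies inside it. NM_001347719, at 1.52 to 2.49 FPKM in control and 0.468 to 0.705 FPKM in Msx1 libraries, was not matched to a GENCODE first exon. FPKM from the start site at 75152251 was therefore not measured in full. Capitals would mark GC boxes (GGGCGG on either strand), of which the stretch holds 0.
Pdgfra upstream: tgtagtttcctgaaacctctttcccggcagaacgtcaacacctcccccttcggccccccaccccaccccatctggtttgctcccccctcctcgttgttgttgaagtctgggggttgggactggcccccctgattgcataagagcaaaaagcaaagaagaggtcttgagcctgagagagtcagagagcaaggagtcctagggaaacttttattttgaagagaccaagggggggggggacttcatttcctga

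Pdgfrl (chromosome 8, 40926233 to 40990782) encodes a secreted protein that resembles the outer part of a PDGF receptor and lacks the kinase. It read 46.0, 50.1 and 48.1 FPKM in control and 69.3, 69.6 and 74.7 FPKM in Msx1 libraries, without overlap. The fold was 1.48 and the log2 change 0.56 (SE 0.06, limma adjusted p = 8.54e-05).

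**Figure D2:**
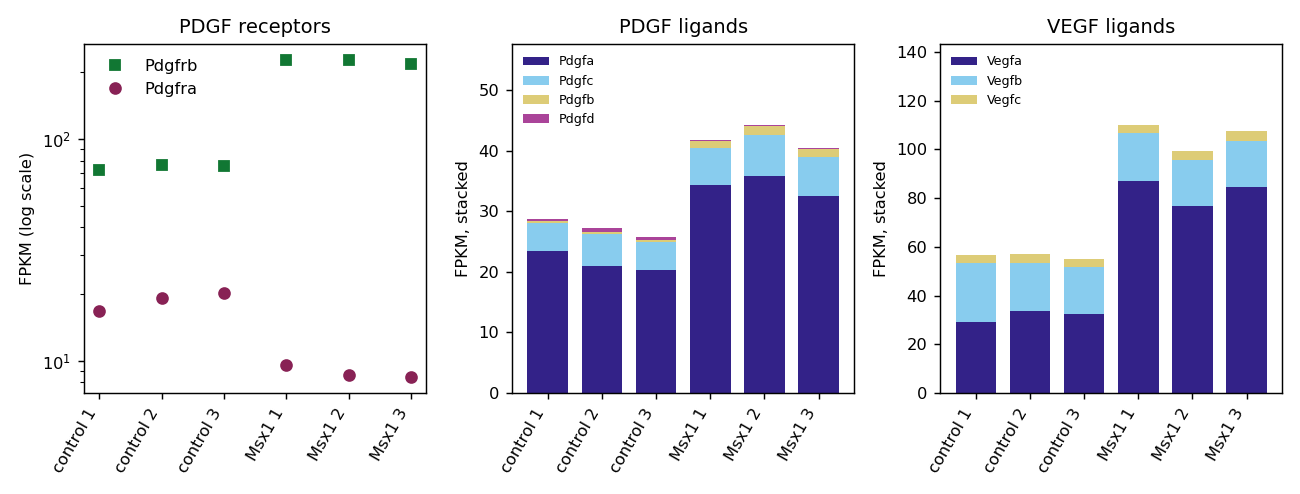
Left, FPKM of Pdgfra and Pdgfrb (log axis) in each library. Middle and right, FPKM of the PDGF and VEGF ligand genes stacked by gene in each library. The receptor points move apart in the Msx1 libraries, and the growth of the VEGF stack, from 55.1 to 57.0 FPKM in control to 99.4 to 110 FPKM in Msx1 libraries, lies in the Vegfa segment.

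Among PDGF ligands, Pdgfa (chromosome 5, 138976014 to 139000792), whose product acts on the alpha receptor, held most of the FPKM. It read 23.4, 21.0 and 20.3 FPKM in control and 34.3, 35.9 and 32.6 FPKM in Msx1 libraries. Every Msx1 library exceeded every control library, by a margin several times the spread within a group. The mean rose 1.59-fold, from 21.5 ± 1.63 to 34.3 ± 1.66 FPKM (n = 3 each). The log2 change was 0.65 (SE 0.07, limma adjusted p = 1.08e-04). Its share of PDGF ligand FPKM was 81.2%, 76.9% and 78.5% in control and 82.3%, 81.0% and 80.6% in Msx1 libraries. The shares overlapped, and the exact two-sided permutation test of the difference of 2.40 percentage points gave p = 0.3.

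Pdgfb (chromosome 15, 79995865 to 80024614), the gene of the B chain, which binds both receptors, was low in all libraries. It read 0.291, 0.299 and 0.304 FPKM in control and 1.27, 1.39 and 1.34 FPKM in Msx1 libraries. The groups lay far apart with very little spread in control. The fold was 4.48, the largest among the members called higher, while the log2(FPKM + 1) change of 0.85 (SE 0.07, limma adjusted p = 2.72e-05) understates it at this level. With a pseudocount of 0.1 the log2 change was 1.85. Pdgfa FPKM was 66.7 to 80.4 times Pdgfb FPKM in control and 24.3 to 27.1 times in Msx1 libraries, so Pdgfb stayed the smaller by far.

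Pdgfc (chromosome 3, 81036416 to 81214040), which encodes a ligand of the alpha receptor that needs proteolytic activation, read 4.68, 5.21 and 4.67 FPKM in control. The Msx1 libraries read 5.99, 6.74 and 6.31 FPKM, each above all controls. The fold was 1.31 (log2 change 0.33, SE 0.07, limma adjusted p = 0.00504). The call was lost when the gene was represented by its most abundant transcript, NM_019971 (log2 change 0.24, adjusted p = 0.236, range 2.57e-04 to 0.236 over 16 alternatives). That transcript held between 66.1% and 89.3% of Pdgfc FPKM. Pdgfd (chromosome 9, 6168363 to 6534284), which encodes a ligand of the beta receptor, read 0.45, 0.783 and 0.572 FPKM in control and 0.136, 0.299 and 0.192 FPKM in Msx1 libraries. Its mean over all libraries, 0.405 FPKM, was below the minimum for testing. Without a minimum it was called lower, with a log2 change of -0.40 (limma adjusted p = 0.0127).

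Vegfa (chromosome 17, 46016993 to 46032377) read 29.2, 33.8 and 32.5 FPKM in control and 86.9, 76.7 and 84.4 FPKM in Msx1 libraries. The lowest Msx1 library was above the highest control by more than the spread within either group. The mean rose 2.60-fold, from 31.8 ± 2.33 to 82.6 ± 5.29 FPKM (n = 3 each). The log2 change was 1.35 (SE 0.07, limma adjusted p = 2.63e-06), rank 327 from the top. Vegfb (chromosome 19, 6982472 to 6987651) read 24.3, 19.4 and 19.2 FPKM in control and 19.8, 19.0 and 19.1 FPKM in Msx1 libraries. The groups overlapped, and control replicate 1 was the highest of the 6. The log2 change was -0.11, with a 95% interval from -0.31 to 0.10 (limma adjusted p = 0.343). Its sign was not stable, at 0.0015 when totals were made equal leaving out Msx1, 0.00036 with sample weights and 0.13 with its most abundant transcript.

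Vegfc (chromosome 8, 54077532 to 54186454) read 3.32, 3.84 and 3.42 FPKM in control and 3.53, 3.70 and 3.98 FPKM in Msx1 libraries, with overlap. The log2 change was 0.07, with a 95% interval from -0.10 to 0.24 (limma adjusted p = 0.472). Of the summed FPKM of Vegfa, Vegfb and Vegfc, Vegfa held 51.5%, 59.3% and 59.0% in control and 78.8%, 77.2% and 78.5% in Msx1 libraries. The difference of 21.6 percentage points had an exact two-sided permutation p = 0.1, the smallest possible here, and 0.15 adjusted over the 3 measures. With Vegfd and Pgf added to the sum, a choice made after seeing the data, the Vegfa share was 25.0% to 28.6% in control and 57.2% to 59.1% in Msx1 libraries, a difference of 31.0 points (exact permutation p = 0.1). The part of Vegfb in the sum of 3 went from 34.0% to 42.7% in control to 17.8% to 19.1% in Msx1 libraries, while Vegfb FPKM overlapped.

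Vegfa is known for splice forms that differ by exons 6 and 7, which encode heparin-binding stretches that hold the protein at cell surfaces and matrix. The exons are shown because the forms are told apart by them (chr17:46022277-46022348 and chr17:46020991-46021122, minus strand, GRCm38, from GENCODE), in lower case with no part marked.
Vegfa exon 6: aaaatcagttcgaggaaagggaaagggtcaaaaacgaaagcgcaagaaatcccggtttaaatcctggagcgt
Vegfa exon 7: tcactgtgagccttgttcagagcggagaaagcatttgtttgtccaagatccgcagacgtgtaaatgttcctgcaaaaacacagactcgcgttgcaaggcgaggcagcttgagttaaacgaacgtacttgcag

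The deposited table held 10 Vegfa transcripts, 7 of which GENCODE pairs with a transcript of known exons. The 2 with exon 7 and without exon 6 summed to 7.64, 8.13 and 8.65 FPKM in control and to 25.2, 24.2 and 17.7 FPKM in Msx1 libraries. The 2 with neither exon summed to 12.4, 14.7 and 9.0 FPKM in control and to 27.9, 16.8 and 33.6 FPKM in Msx1 libraries. The 3 with both exons summed to 6.40, 4.16 and 5.47 FPKM in control and to 9.61, 26.9 and 9.86 FPKM in Msx1 libraries. Each of these sums was higher in every Msx1 library than in every control library. The 3 transcripts without a GENCODE partner summed to 2.83, 6.81 and 9.35 FPKM in control and to 24.1, 8.88 and 23.2 FPKM in Msx1 libraries, with overlap.

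Single Vegfa transcripts were much less even than the gene. NM_009505 and NM_001287057 are paired by GENCODE with the same transcript. So are NM_001287056 and NM_001317041, which carry most of the sum with both exons. The separate values within each pair are uncertain, and exon use was read from the partner. NM_009505 read 0.029, 5.60 and 5.34 FPKM in control and 17.9, 0.154 and 12.7 FPKM in Msx1 libraries. NM_001287057 read 7.61, 2.53 and 3.31 FPKM in control and 7.28, 24.0 and 5.06 FPKM in Msx1 libraries. Control replicate 1 and Msx1 replicate 2 were low in the former and highest of their group in the latter, and NM_001025257 was likewise at 0.025 and 0.139 FPKM in those libraries. With Vegfa represented by its most abundant transcript, NM_001287058, the log2 change was 1.15 and the call was lost (limma adjusted p = 0.107, range 6.54e-08 to 0.107 over 16 alternatives). The call is one of the sum over transcripts, and shares of splice forms were not tested.

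**Figure D3:**
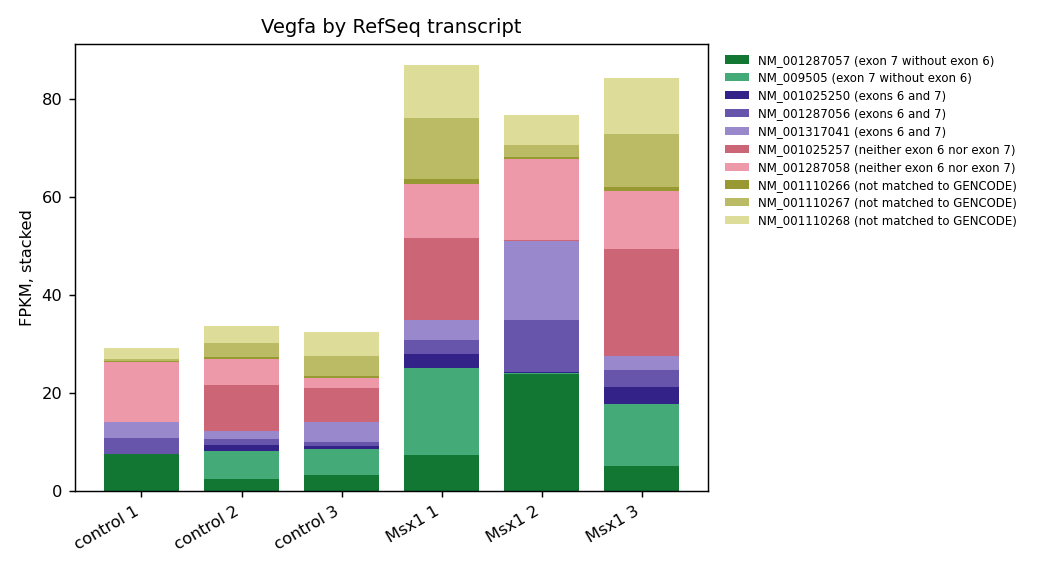
FPKM of the 10 Vegfa transcripts stacked in each library, coloured by their use of exons 6 and 7. The stacks reach 29.2 to 33.8 FPKM in control and 76.7 to 86.9 FPKM in Msx1 libraries, while single segments vary widely within a group.

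Vegfb had 2 transcripts. NM_011697 held 45.3% to 53.1% of Vegfb FPKM in control and 55.0% to 64.2% in Msx1 libraries, and NM_001185164 held the rest. These shares did not overlap and were not tested.

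RefSeq's promoter table held windows for 7 of the 10 genes, 9 windows in all, of which the 250 bases before each start site were searched on both strands. Pdgfb, Pdgfrb and Pdgfrl had no window and were not searched. The GC box GGGCGG, bound by Sp1-type factors, was in 32.7% of all 32851 windows and in those of Pdgfa, Vegfa, Vegfb and Vegfc. The homeodomain core TAATTG, the kind of letters that Msx proteins are known to bind, was in 7.17% of all windows and in 0 of the 9. The hypoxia element core ACGTG was in 16.6% of all windows and in the window of the downstream Vegfa start site. TATAAA was in 12.4% of all windows and in that of Pdgfd. The Vegfa and Vegfb stretches are shown with GC boxes in capitals, 2 and 4 matches, as a gene that rose beside a gene that was not called (Vegfa chr17:46032378-46032627 and Vegfb chr19:6987652-6987901, minus strand, GRCm38.p6). Adjoining matches in Vegfb run together in capitals.
Vegfa upstream: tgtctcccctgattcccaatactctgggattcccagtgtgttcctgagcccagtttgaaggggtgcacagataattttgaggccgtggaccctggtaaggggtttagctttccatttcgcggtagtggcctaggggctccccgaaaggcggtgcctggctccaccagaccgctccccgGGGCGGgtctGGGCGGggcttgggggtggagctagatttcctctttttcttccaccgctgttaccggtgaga
Vegfb upstream: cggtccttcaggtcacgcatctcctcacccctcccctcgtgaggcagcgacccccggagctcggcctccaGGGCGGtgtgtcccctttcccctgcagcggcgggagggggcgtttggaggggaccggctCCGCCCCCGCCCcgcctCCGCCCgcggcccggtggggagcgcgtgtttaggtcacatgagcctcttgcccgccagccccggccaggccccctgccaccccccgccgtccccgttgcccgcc

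Other ligands and receptors of the VEGF family, none of them among the 10, moved in both directions. Of 5 tested 2 were called higher, 2 lower and 1 not called, beside 22.0% of all genes called higher and 32.4% lower. Vegfd, a ligand related to VEGF-C, read 45.0, 49.3 and 47.5 FPKM in control and 18.9, 17.5 and 18.1 FPKM in Msx1 libraries. All Msx1 libraries were lower (log2 change -1.33, SE 0.06, limma adjusted p = 7.90e-07). Vegfa FPKM was therefore 0.65 to 0.685 times Vegfd FPKM in control and 4.38 to 4.67 times in Msx1 libraries. Pgf, encoding placental growth factor, another ligand of Flt1, rose 1.36-fold (log2 change 0.43, SE 0.09, limma adjusted p = 0.00507).

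The VEGF receptor kinase genes were at very low levels throughout. Flt1 read 1.008, 1.23 and 0.979 FPKM in control and 0.101, 0.108 and 0.041 FPKM in Msx1 libraries, all lower. Its log2 change was -0.93 (SE 0.08, limma adjusted p = 3.96e-05), and it passed the minimum only through its control level. Kdr was at 0 to 0.02 FPKM in control and 0.0996 to 0.122 FPKM in Msx1 libraries, and Flt4 at 0 to 0.0072 FPKM over all 6, both below the minimum. Without a minimum Kdr was called higher (log2 change 0.14, limma adjusted p = 0.00136) and Flt4 was not called. Nrp1, encoding a co-receptor, read 5.99, 10.7 and 7.35 FPKM in control and 10.3, 17 and 16 FPKM in Msx1 libraries, with overlap. It was called higher (log2 change 0.78, SE 0.22, limma adjusted p = 0.0184), and the call was lost without control replicate 3, Msx1 replicate 2 or Msx1 replicate 3 (adjusted p = 0.0583, 0.0613 and 0.0635, range 6.59e-04 to 0.0635 over 16 alternatives). Nrp2, at 68.4 to 87.6 FPKM in control and 64.3 to 81.3 FPKM in Msx1 libraries, was not called (log2 change -0.15, 95% interval -0.42 to 0.11, limma adjusted p = 0.283).

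**Figure D4:**
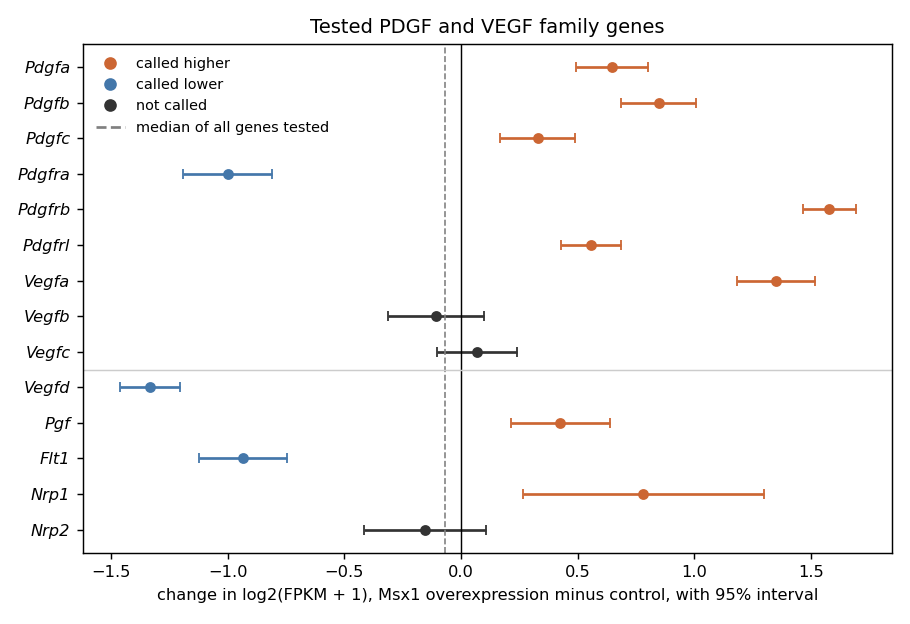
Change in log2(FPKM + 1), Msx1 overexpression minus control, with limma's 95% interval, for the 9 tested members (above the line) and 5 other tested VEGF family genes (below it). Pdgfrb at 1.58 and Vegfa at 1.35 lie farthest right, and Vegfd at -1.33 and Pdgfra at -0.999 farthest left.

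PDGF-C, PDGF-D and VEGF-C are secreted as latent or partly active precursors, and other extracellular proteins bind PDGF or clear it. Of 8 tested genes of ligand activation and sequestration, 5 rose, 2 fell and 1 was not called, beside 22.0% of all genes higher and 32.4% lower, with a median log2 change of 0.51. Plau, encoding the protease urokinase, which can activate PDGF-D, rose from 12.1 ± 0.524 to 67.7 ± 2.32 FPKM (log2 change 2.39, limma adjusted p = 3.95e-08). Ccbe1, a cofactor in the cleavage of VEGF-C, rose from 0.823 ± 0.124 to 6.38 ± 0.354 FPKM (log2 change 2.02), while Adamts3, the protease that it assists, fell from 2.95 ± 0.409 to 0.521 ± 0.138 FPKM (log2 change -1.37). The other genes called higher were Furin, Hspg2 and Lrp1. Plat, whose product cleaves PDGF-C, was called lower, but not when totals were made equal leaving out Msx1 (adjusted p = 0.115, against 0.00649).

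Most genes of the kinases, adaptors and GTPases that carry the receptor signal were not called. Of 33 tested, 6 were higher, 8 lower and 19 not called, with a median log2 change of 0.05, beside 54.4% of all genes called in either direction. These counts moved to 11 and 5 when totals were made equal leaving out Msx1, and to 2 and 5 without Msx1 replicate 1. Stat5b rose from 11.5 ± 0.208 to 19.0 ± 0.708 FPKM (log2 change 0.68). Nras, encoding a Ras GTPase, fell from 27.6 ± 1.08 to 18.1 ± 0.877 FPKM (log2 change -0.58).

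Of 20 negative regulators of receptor signalling, 6 rose, 9 fell and 5 were not called, beside 22.0% of all genes called higher and 32.4% lower, with a median log2 change of -0.15. Spry1, a feedback inhibitor of receptor tyrosine kinases, rose from 4.43 ± 1.00 to 19.5 ± 0.862 FPKM (log2 change 1.93, limma adjusted p = 5.91e-06), and its relative Spred2 rose with a log2 change of 1.20. Dusp4, a phosphatase of MAP kinases, rose with a log2 change of 1.05. Relatives of these genes moved in both directions. Spry2 fell with a log2 change of -0.87, Dusp6 with -0.60 and Dusp5 with -0.47. Spred1 was called higher with 0.24, and Spry4 was not called (-0.14). Errfi1, an inhibitor of EGF receptor family kinases, fell with -1.04.

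Immediate response genes, which growth factors such as PDGF are known to induce within a short time of stimulation, were lower as a group. Of 14 tested, 13 were called lower and 1, Ier3, higher, beside 32.4% of all genes called lower, and 12 or 13 were lower under each of the 3 other scalings. Egr1 read 152, 179 and 128 FPKM in control and 27.7, 27.7 and 27.8 FPKM in Msx1 libraries (log2 change -2.41, SE 0.11, limma adjusted p = 1.16e-06). The chemokine genes Cxcl1 and Ccl2 had log2 changes of -3.08 and -0.88. The list's median was -0.91. Fosb, 1 of the 13, passed the minimum only through its control level (0.806 FPKM, against 0.493 FPKM in Msx1 cells), and with a minimum of 1 FPKM 12 of 13 were lower. The labels do not state serum or time since feeding, to which such genes are known to respond.

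Hypoxia factors and targets, a group to which Vegfa is known to belong, had 5 of 17 genes higher, 5 lower and 7 not called, near the 22.0% and 32.4% of all genes, and a median log2 change of -0.03. Ndrg1 rose from 68.4 ± 0.84 to 316 ± 14.4 FPKM (log2 change 2.19, limma adjusted p = 5.88e-08). Car9 and Pgk1 fell, with log2 changes of -0.69 and -0.80. The others called higher were P4ha1 (0.47), Ankrd37 (0.42), Egln1 (0.33) and Slc2a1 (0.33). The others called lower were Ldha (-0.48), Hif1a (-0.37) and Egln3 (-0.31).

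**Figure D5:**
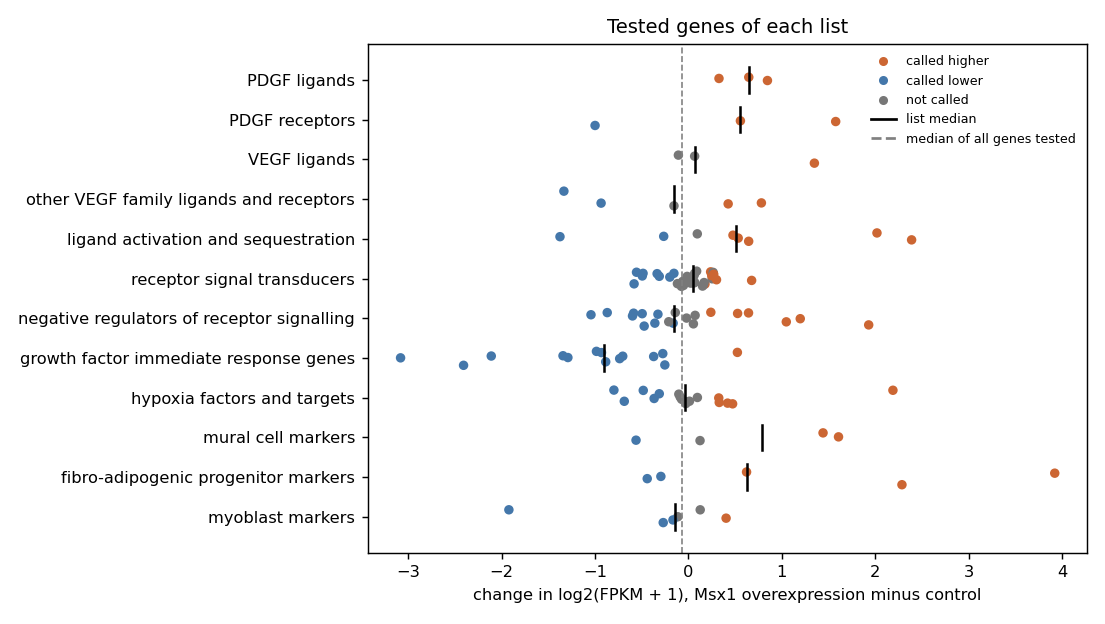
Change in log2(FPKM + 1) of each tested gene (points, coloured by call) in the lists of ligands, receptors, signalling genes and cell markers, with list medians as black bars and the median of all genes as a dashed line. The immediate response genes lie mostly left of the line with a median of -0.91, and the signal transducers cluster around it with a median of 0.05.

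Markers of other cell types were set beside these results. Of 12 endothelial markers 11 had a mean under 0.5 FPKM, 2 of them (Cldn5 and Esam) at 0 in all libraries, and the list summed to 2.36 to 3.10 FPKM in control and 1.31 to 2.08 FPKM in Msx1 libraries. Egfl7, which is also expressed outside endothelium, was the 1 tested and was lower (log2 change -0.84), from 2.31 to 0.848 FPKM, so it made up most of the list's sum in control. Below the minimum, Cdh5 went from 0.118 ± 0.018 to 0.556 ± 0.168 FPKM and Vwf from 0.06 ± 0.039 to 0.202 ± 0.027 FPKM, neither with overlap. Both were called higher without a minimum (limma adjusted p = 0.00455 and 0.00699). Blood cell markers had Ptprc and Adgre1 at 0 in all libraries. Of the 3 tested Lyz2 was higher (log2 change 1.04) and Cd68 and Cd14 were lower (-0.96 and -0.63). Over all genes tested, 22.0% were called higher and 32.4% lower. The blood cell list summed to 31.4 to 33.2 FPKM in control and 32.6 to 38.3 FPKM in Msx1 libraries.

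Mural cell markers moved partly with Pdgfrb. Their sum was 26.1 to 27.6 FPKM in control and 42.7 to 46.9 FPKM in Msx1 libraries. Of 4 tested 2 rose, 1 fell and 1 was not called, beside 22.0% of all genes called higher and 32.4% lower. Cspg4 rose from 6.55 ± 0.215 to 22.0 ± 1.23 FPKM (log2 change 1.61) and Kcnj8 from 0.06 ± 0.012 to 1.89 ± 0.228 FPKM, while Mcam fell (-0.56). Most of the rise in the list's sum lay in Cspg4. Notch3, the tested marker that was not called, went from a mean of 17.8 to 19.5 FPKM with overlap. It was called higher, making 3 of the 4, with median-of-ratios scaling, equal totals leaving out Msx1 or sample weights. Kcnj8 passed the minimum only through its level in Msx1 libraries. Rgs5 was at 0.033 to 0.234 FPKM over all libraries, and Abcc9 and Higd1b were at 0 in all control libraries, Abcc9 reading 0.044 to 0.072 FPKM in Msx1 libraries. Ndufa4l2 went from 0.473 ± 0.149 to 0.219 ± 0.032 FPKM without overlap. Without a minimum Abcc9 was called higher (limma adjusted p = 0.00935) and Ndufa4l2 lower (0.031). Their part in the rise of Pdgfrb was not tested.

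Markers that accompany Pdgfra in fibro-adipogenic progenitors did not fall with it as a list. Of 5 tested, 3 rose and 2 fell, beside 22.0% of all genes called higher and 32.4% lower. The list's sum was 501 to 581 FPKM in control and 796 to 838 FPKM in Msx1 libraries. Most of this sum, and most of its rise, lay in Ly6a, whose mean went from 401 ± 39.4 to 616 ± 22.3 FPKM. Dcn rose from 5.07 ± 1.35 to 89.7 ± 5.51 FPKM (log2 change 3.92) and Pi16 from 0.707 ± 0.121 to 7.32 ± 0.253 FPKM (log2 change 2.29). Ly6a was called higher (log2 change 0.62). With its most abundant transcript in place of the sum over transcripts, however, the log2 change was -1.57 and not called (limma adjusted p = 0.714). Cd34 was lower, though not by its most abundant transcript, and Osr1, at an adjusted p of 0.0498, lost its call in 11 of 16 alternatives. Dpp4, Col15a1 and Lum were below the minimum. Lum went from 0.061 ± 0.019 to 0.931 ± 0.234 FPKM and was called higher without a minimum (log2 change 0.86, limma adjusted p = 6.62e-04). Of 6 myoblast markers 1 rose, 3 fell and 2 were not called, beside the same shares of all genes. Among them were Myf5 with a log2 change of -1.92, Chrnd with 0.40 and Des with -0.27. With median-of-ratios scaling 2 rose and 2 fell. The part of these genes in the fall of Pdgfra was not tested.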

How the data were processed

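Libraries were made from Trizol-extracted RNA with a NEBNext Ultra kit, per the labels' protocols. The authors deposited 1 table of FPKM with a row per RefSeq transcript and a column per sample, made with Trimmomatic, HISAT2 and StringTie on GRCm38 (mm10), per the submitters' processing notes. Tool versions, settings and the strand setting were not given in the sources used. StringTie estimates how the reads of overlapping transcripts are divided. Control columns were matched to samples by number. Of 38468 transcripts, 38193 got symbols from RefSeq and 156 from GENCODE M21, and FPKM were summed to 24809 genes. Depth is unknown: low values gave whole multiples of a fitted step in only 39.6% to 45.9% of cases (within 0.1), so whole reads were not recovered.

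limma 3.58.1 (R 4.3.3) was fitted to log2(FPKM + 1) of all 6 libraries with an intensity trend and Benjamini-Hochberg adjustment over 12371 genes. The fit was also run on simulated normal values with few changed genes, unlike these data, in which 54.4% of genes were called. That run therefore does not give the error rate of the calls here. Within-library ratios were tested by exact permutation (scipy 1.17.1). Members, lists and tests were chosen with earlier results of these data known. All members were named, every other VEGF family gene, and up to 3 called genes with the smallest adjusted p from each other list; further list genes (such as Furin, Plat, Ier3, Cd34 and Osr1) were named after their values were seen. Alternatives were 3 scalings, another pseudocount, other minimums, a replicate block, no trend, sample weights, single transcripts and leaving out each library. The listed older symbol Figf has no row beside Vegfd. For 1 list, a gene that the rule selects is not reported here.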

Additional observations from a re-analysis of the deposited data

How the results depend on the processing

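The 6 higher and 1 lower calls among members held under all alternatives that kept summed transcripts, except that Pdgfd made the lower count 2 without a minimum and Pdgfb was left out at a minimum of 1 FPKM. With the most abundant transcript in place of the sum, Pdgfc and Vegfa lost their calls (log2 change 0.24 and 1.15), leaving 4 higher and 1 lower, and Vegfb turned to 0.13. Vegfb also turned to 0.0015 with equal totals without Msx1 and to 0.00036 with sample weights, and it was not called in any of the 16 alternatives. The cause was not tested. Over all genes, 2718 higher and 4014 lower calls became 3494 and 2814 with equal totals without Msx1, so the higher share of calls went from 40.4% to 55.4%. That share was 50.8% with median-of-ratios scaling and 45.8% after quantile normalization. These scalings moved the median of all genes by up to 0.10. Leaving out 1 library gave 2284 to 2823 higher and 3280 to 4272 lower genes. The Pdgfra to Pdgfrb log2 ratio difference was then -2.73 to -2.62. The Vegfa share difference was 19.1 to 23.0 points and the Pdgfa share difference 1.43 to 3.56 points. With each gene represented by its most abundant transcript, however, the Vegfa share overlapped between the groups. NM_001287058, which then stood for Vegfa, read 12.4, 5.26 and 2.03 FPKM in control and 11.2, 16.6 and 11.8 FPKM in Msx1 libraries.

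With the replicate number as a block, 2692 genes were higher and 4055 lower, and the 6 higher and 1 lower member calls were unchanged. Deviations of same-numbered libraries correlated at 0.055, 0.226 and 0.037. Those of pairs with unlike numbers correlated at -0.204 to 0.133. The labels do not state a pairing, and these few correlations cannot decide whether same-numbered samples were handled together.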
